A study of Mus musculus with 10 samples.

Results

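The complement genes described here are a named set of 9: C1qa, C1qb, C1qc, C1s1, C3, Cfb, Cfp, C3ar1 and C5ar1. Every probe set whose only symbol in the platform annotation is one of these names was taken, whatever its signal. That gave 11 probe sets for 8 of the 9 genes, out of 22690 probe sets on the array and 12393 genes with a probe set of their own. C1qb had 3 probe sets, C3ar1 had 2 and the other 6 genes had 1 each. No probe set carries the symbol C3 in the annotation used, so C3, the central component, was not analysed here. All 8 genes passed the filter on dim signals, but C1s1 passed it through the CD14-deficient LPS arrays alone, where it was high, so its passing supports nothing.

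Complement is a cascade of blood proteins that marks microbes and dying cells for uptake. In the classical pathway, C1q, built from the C1qa, C1qb and C1qc chains, binds the target and activates the proteases C1r and C1s, while in the alternative pathway factor B, from Cfb, forms the C3-cleaving enzyme that properdin, from Cfp, stabilises. Both routes release the fragments C3a and C5a, which act on the receptors encoded by C3ar1 and C5ar1. Most complement proteins are made in the liver, but macrophages and immature dendritic cells are known local sources of C1q, and myeloid cells make properdin.

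The study set out to find apoptosis genes controlled by the calcium-dependent transcription factor NFAT in LPS-activated dendritic cells. Dendritic cells were grown for 7 to 10 days from the bone marrow of C57BL/6 mice aged 6 to 8 weeks, in medium with supernatant of tumour cells that secrete GM-CSF, and were used when over 90% were positive for CD11c. The mice were Cd14-/- or wild type, and CD14 is the co-receptor that hands LPS to TLR4. In each genotype, 2 arrays came from cells given smooth LPS at 1 µg/ml with 50 nM thapsigargin, 2 from cells given LPS alone and 1 from unstimulated cells, so 5 arrays per genotype and 10 in all. Thapsigargin inhibits SERCA pumps, which empties calcium stores and raises free calcium in the cytosol. Stimulated cells were harvested at 48 or 60 h and unstimulated cells at 24 h after plating. No culture received thapsigargin without LPS, and no array has a replicate. Whether mice were pooled was not stated.

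The values are MAS5 signals, a linear intensity per probe set, scaled here to a common trimmed mean and raised to a floor of 13.4 where they were lower. A MAS5 signal depends on the probes, so levels are compared between arrays and never between genes. Differences are given as log2 changes ± their standard error from 1 limma model over all 10 arrays, in which the 48 and 60 h arrays of a condition stand in for replicates after a common time shift. The p-values are adjusted over 7474 genes, with a threshold of 0.05, and leave out any spread from culture to culture or mouse to mouse. Stimulation and time in culture cannot be told apart in any comparison with the unstimulated arrays, and the comparisons share arrays with each other. In a whole culture, fewer cells of a type and less RNA per cell cannot be told apart either.

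The genotypes matched their labels, with a Cd14 signal between 1.85 and 7.35 on the CD14-deficient arrays and between 1499 and 17729 on the wild-type arrays. Of 15 dendritic cell markers, all had a probe set and 14 passed the filter. Itgax, which encodes CD11c, lay between 750.4 and 7838 on the 10 arrays, and the class II gene H2-Aa between 10028 and 16250. Xcr1 was at or near the floor, and Cd209a was at most 33.1 after stimulation. A pair of arrays stood apart in yield and in a control signal: CD14-deficient LPS at 48 h and wild-type LPS at 60 h had the lowest cRNA yields, 15 and 19 µg against 20.0 to 53.1 µg elsewhere. Their RNA integrity numbers, 10 and 8.6, lay within the 8.4 to 10 of the other arrays. Their 3 control probe sets for 18S rRNA read 114 to 385 and 217 to 685, against 1426 to 12656 on the other 8 arrays. Modelled changes of single complement genes that use the LPS arrays are therefore given with and without this pair. Without them each LPS arm is a single array, at 60 h for CD14-deficient cells and 48 h for wild type. The fit then has 1 residual degree of freedom, and far more genes pass the threshold. Its time shift comes from the arms with thapsigargin alone, so genotype and time cannot be told apart between the LPS arms.

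The promoters of C1qb, C1qc and Cfp are shown because these genes fell together under LPS with thapsigargin. C1qb, C1qc and C1qa are next to each other on chromosome 4 in the RefSeq gene order, and Cfp is on the X chromosome. Of the 9 genes, 7 have an entry in the promoter table used. The 250 bases before each start site are from RefSeq (GRCm38.p6), all on the minus strand and read 5′ to 3′, at chr4:136886201-136886450 for C1qb, chr4:136892915-136893164 for C1qc and chrX:20931556-20931805 for Cfp. Capitals mark matches on either strand to any of 7 short motifs.
C1qb: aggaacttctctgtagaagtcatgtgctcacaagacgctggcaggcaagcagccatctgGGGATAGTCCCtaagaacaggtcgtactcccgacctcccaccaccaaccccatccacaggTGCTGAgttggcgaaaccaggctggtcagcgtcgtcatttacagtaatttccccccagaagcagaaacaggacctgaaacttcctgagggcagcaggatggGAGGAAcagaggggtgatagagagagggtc
C1qc: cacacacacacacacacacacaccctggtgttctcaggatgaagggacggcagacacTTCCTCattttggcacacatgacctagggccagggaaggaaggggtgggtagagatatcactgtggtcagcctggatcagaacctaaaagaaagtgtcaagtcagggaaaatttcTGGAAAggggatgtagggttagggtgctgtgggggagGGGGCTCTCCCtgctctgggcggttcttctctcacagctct
Cfp: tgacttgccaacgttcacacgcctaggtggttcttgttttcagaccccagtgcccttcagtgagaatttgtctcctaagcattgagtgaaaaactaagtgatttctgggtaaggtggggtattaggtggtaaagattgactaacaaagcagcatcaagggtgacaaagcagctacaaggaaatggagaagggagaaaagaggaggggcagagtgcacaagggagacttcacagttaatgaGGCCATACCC

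The motifs were GAGGAA, the core bound by the myeloid factor PU.1, GGG and CC with 5 bases of any kind between them for NF-kB, a pair of GAAA with 2 bases between them for interferon regulatory factors, TGANTCA for AP-1, TGGAAA for NFAT, TTCNNNGAA for STAT factors and TGCTGA, a half-site of MAF factors. C1qb and C1qc both held GAGGAA, at positions −30 to −25 in C1qb and, on the opposite strand, −193 to −188 in C1qc, counted back from the start site. This core was present in 23.3% of 32851 promoter windows of the same length. Both also held the NF-kB pattern, found in 45.8% of windows, where matches on opposite strands overlapped by all or nearly all of their bases. Of the 7, Cfp held that pattern alone, in its last 10 bases. TGCTGA (16.1% of windows) occurred in C1qb alone of the 3 and TGGAAA (18.6%) in C1qc alone, and the other motifs (2.98% to 7.02%) had no match in these 3 windows. Such matches are letters in a window and no evidence of binding.

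The genes fell into 4 patterns. The C1q chains and Cfp were highest in unstimulated cells, lower under LPS and lowest under LPS with thapsigargin in both genotypes. Cfb ran the other way against unstimulated cells, and in wild-type cells it was highest on the LPS arrays. C1s1 was over 99.2, the signal of the filter, on the CD14-deficient LPS arrays alone. The receptor genes differed: C3ar1 was low on the CD14-deficient LPS arrays on its brighter probe set, and C5ar1 was highest in unstimulated cells of both genotypes.

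**Figure D1:**
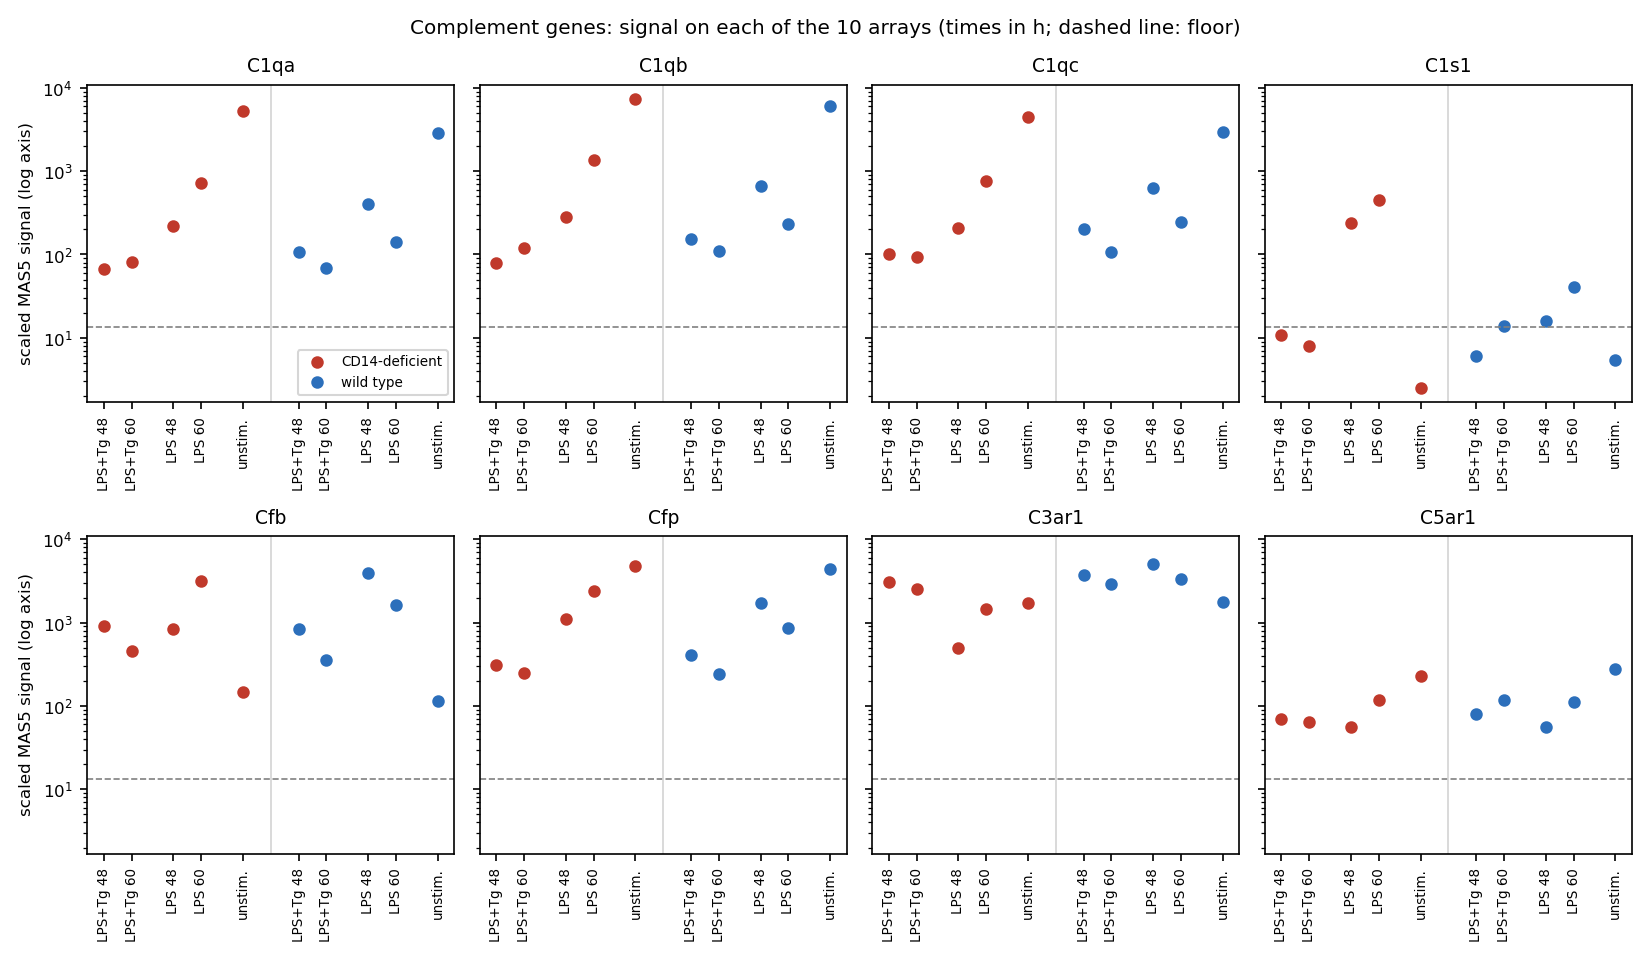
Scaled MAS5 signal of each complement gene (log axis) on each of the 10 arrays, with CD14-deficient arrays in red left of wild-type arrays in blue, each point 1 array and the dashed line the floor of 13.4. C1qa, C1qb, C1qc and Cfp are highest on the unstimulated arrays, and C1s1 stands at 242 and 448 on the CD14-deficient LPS arrays and at or under 40.3 elsewhere.

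Counted against all genes, LPS with thapsigargin lowered 5 of the 8 genes in CD14-deficient cells, C1qa, C1qb, C1qc, Cfp and C5ar1, and 4 of 8 in wild-type cells, the same without C5ar1. Over all 7474 genes, 21.5% passed in CD14-deficient cells (10.4% lower) and 21.1% in wild-type cells (9.51% lower). The median log2 change of the 8 genes was −2.95 in CD14-deficient cells and −2.64 in wild type, against 0.04 and 0.07 for all genes. These counts fell to 0 of 8 when either array with thapsigargin of that genotype was left out, and when no filter on dim genes was used, where C1qa had an adjusted p of 0.0542 in CD14-deficient cells and 0.0805 in wild type by limma. Counted without a model, 5 of 8 genes were at least 2-fold lower at both times in each genotype, beside 11.9% of all genes in CD14-deficient cells and 11.3% in wild type. Cfb was 2-fold higher in both, beside 11.1% and 11.7%.

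LPS alone raised 1 of 8, C1s1, in CD14-deficient cells, where 4.17% of all genes passed (2.17% higher). C1s1 was tested only because it was high on these arrays, so this call and those for C1s1 below are a description, and 0 of the other 7 passed. In wild-type cells it raised Cfb and lowered C1qa and C5ar1, 3 of 8, where 15.9% of all genes passed (7.69% higher and 8.24% lower). The medians under LPS were −1.54 in CD14-deficient cells and −1.83 in wild type, against 0.03 and −0.03 for all genes. Without a model, 4 of 8 were 2-fold lower at both times in CD14-deficient cells, the C1q chains and Cfp, beside 4.79% of all genes, and 2 higher, C1s1 and Cfb, beside 4.6%. In wild-type cells 5 were lower, C5ar1 in addition, beside 9.74%, and 1 higher, Cfb, beside 8.13%. The responses to LPS and to LPS with thapsigargin share the unstimulated array of each genotype.

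Thapsigargin added to LPS lowered Cfp and the C1s1 just described, 2 of 8, in CD14-deficient cells, beside 6.62% of all genes called (3.2% lower), with a median of −2.23 against −0.0001. In wild-type cells 0 of 8 passed by limma, beside 0.0535% of all genes, with 2 of 8 and 770 of all genes at an unadjusted p under 0.05 and medians of −1.46 and 0.11. Lower by 2-fold at both times were C1qa, C1qb, C1qc, C1s1 and Cfp in CD14-deficient cells, 5 of 8 beside 4.03% of all genes. C1s1 counts here only as a description. In wild-type cells they were C1qa, C1qb, C1qc, Cfb and Cfp, 5 of 8 beside 1.74%.

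Between the genotypes under LPS, 1 of 8, C1s1, was higher in CD14-deficient cells, beside 5.18% of all genes called (2.57% higher). Under LPS with thapsigargin 0 of 8 differed, beside 0.0268% of all genes, with 0 of 8 and 329 genes at an unadjusted p under 0.05. The difference of the LPS responses between the genotypes passed in 0 of 8 genes and in 0% of all genes, with 2 of 8 and 613 genes at an unadjusted p under 0.05. The difference of the thapsigargin effects likewise passed in 0 of 8 and in 0% of all genes, with 2 of 8 and 994 genes at an unadjusted p under 0.05. The common shift from 48 to 60 h passed in 0 of 8 and 0% of all genes, with 0 of 8 and 734 genes at an unadjusted p under 0.05. Without the low-yield pair of arrays, the counts called were 7 of 8 in each genotype for LPS with thapsigargin against unstimulated cells, beside 62.2% of all genes in CD14-deficient cells and 60.4% in wild type. For LPS alone they were 5 of 8 in CD14-deficient cells (28.2% of all genes) and 7 of 8 in wild-type cells (50.1%). For thapsigargin under LPS they were 7 (43.5%) and 6 (15.7%), and for the genotypes under LPS 4 (22.5%). The difference of the LPS responses then passed in 2 of 8 (4.19%), C1s1 and C3ar1, and that of the thapsigargin effects in 3 of 8 (12.8%), these and Cfp, while the genotypes under LPS with thapsigargin (5.04%) and the time shift (0%) still gave 0 of 8.

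**Figure D2:**
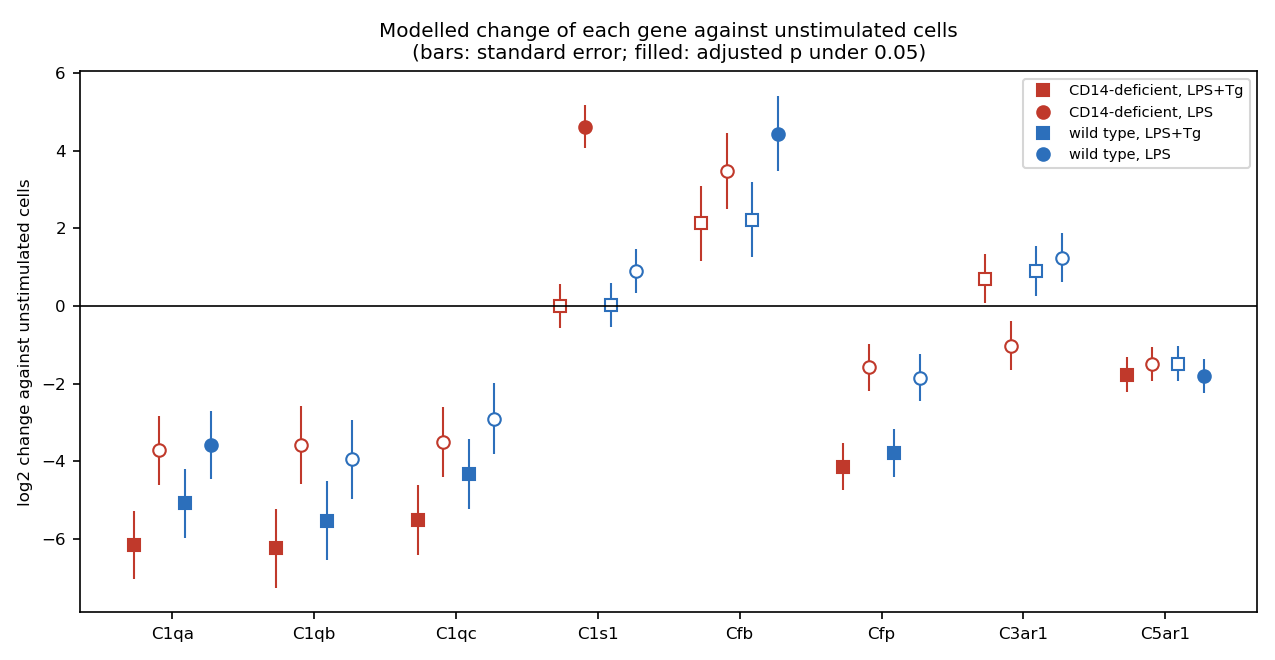
Modelled log2 change of each complement gene against unstimulated cells of the same genotype, for LPS with thapsigargin (squares) and LPS alone (circles), CD14-deficient cells in red and wild type in blue. Bars are standard errors, and filled symbols passed an adjusted p of 0.05: the C1q chains and Cfp are filled for LPS with thapsigargin in both genotypes and C5ar1 in CD14-deficient cells, and for LPS alone C1s1 is filled in CD14-deficient cells and C1qa, Cfb and C5ar1 in wild type.

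C1qa, C1qb and C1qc encode the chains of C1q, the recognition molecule of the classical pathway. They fell strongly under LPS with thapsigargin in both genotypes. In CD14-deficient cells C1qa read 66.7 and 82.1 at 48 and 60 h with LPS and thapsigargin, 220.2 and 728 with LPS alone, and 5278 unstimulated. The wild-type values were 107 and 68.0 with LPS and thapsigargin, 408 and 142 with LPS alone, and 2879 unstimulated. The 3 conditions did not overlap in either genotype, with LPS and thapsigargin lowest and LPS alone between it and the unstimulated array. C1qa changed by −6.16 ± 0.88 under LPS with thapsigargin in CD14-deficient cells (71.3-fold lower, adjusted p = 0.00886) and by −5.08 ± 0.88 in wild-type cells (33.8-fold lower, adjusted p = 0.0153).

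On the brightest of its probe sets C1qb read 79.4 and 118 in CD14-deficient cells with LPS and thapsigargin, 279.6 and 1345 with LPS alone, and 7344 unstimulated. Its wild-type values were 155 and 110.0 with LPS and thapsigargin, 661 and 232 with LPS alone, and 6032 unstimulated. The same order of conditions held, again with no overlap. C1qb changed by −6.24 ± 1.01 (75.7-fold lower, adjusted p = 0.0128) in CD14-deficient and by −5.53 ± 1.01 (46.2-fold lower, adjusted p = 0.0178) in wild-type cells. The other 2 probe sets for C1qb fell as well, by 5.83 and 3.86 in CD14-deficient and by 5.66 and 4.06 in wild-type cells on the log2 scale. Their suffix (_x_at) marks probes that can also bind other transcripts.

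C1qc read 101 and 93.4 in CD14-deficient cells with LPS and thapsigargin, 207 and 754 with LPS alone, and 4459 unstimulated. Its wild-type signals were 199.8 and 107 with LPS and thapsigargin, 627 and 243 with LPS alone, and 2914 unstimulated. Its changes under LPS with thapsigargin were −5.52 ± 0.90 (45.9-fold lower, adjusted p = 0.0129) in CD14-deficient and −4.32 ± 0.90 (20.0-fold lower, adjusted p = 0.0252) in wild-type cells, where the call was kept in 5 of 9 fits that left out 1 array. The profiles of the 3 chains were close: centred on its own mean, the C1qa profile differed from that of C1qb by a root mean square of 0.23 log2 units over the 10 arrays, from C1qc by 0.39, and C1qb from C1qc by 0.46. Cfp was the next member, at 0.61 from C1qc.

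Under LPS alone the C1q chains were lower than in unstimulated cells on every array, though only 1 of 6 tests passed. C1qa changed by −3.72 ± 0.88 in CD14-deficient cells (adjusted p = 0.0803) and fell by 3.58 ± 0.88 in wild-type cells (adjusted p = 0.0466), a call kept in 9 of 19 alternatives and in 3 of the 9 that left out 1 array. C1qb changed by −3.58 ± 1.01 (adjusted p = 0.112) in CD14-deficient and −3.94 ± 1.01 (adjusted p = 0.0507) in wild-type cells. C1qc changed by −3.50 ± 0.90 (adjusted p = 0.0942) in CD14-deficient and −2.90 ± 0.90 (adjusted p = 0.0816) in wild-type cells. Without the low-yield pair the changes lay between −2.31 and −2.77 in CD14-deficient and between −2.47 and −3.17 in wild-type cells.

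Each C1q chain was at least 2-fold lower with thapsigargin in all 4 pairs of arrays matched by genotype and time. C1qa was lower with thapsigargin by 3.30-fold at 48 h and 8.87-fold at 60 h in CD14-deficient cells, and by 3.82-fold and 2.08-fold in wild-type cells. For C1qb the same folds were 3.52 and 11.4 in CD14-deficient and 4.26 and 2.11 in wild-type cells, and for C1qc 2.05 and 8.07, and 3.14 and 2.27. The fold was thus larger at 60 h in CD14-deficient cells and at 48 h in wild-type cells for each chain. The modelled changes were −2.44 ± 0.72, −2.66 ± 0.83 and −2.02 ± 0.74 for C1qa, C1qb and C1qc in CD14-deficient cells (adjusted p = 0.0944, 0.105 and 0.141), and −1.50 ± 0.72, −1.59 ± 0.83 and −1.42 ± 0.74 in wild-type cells (adjusted p = 0.536, 0.562 and 0.562). None of the 6 passed. Without the low-yield pair the changes lay between −3.21 and −3.77 in CD14-deficient and between −1.85 and −2.36 in wild-type cells.

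**Figure D3:**
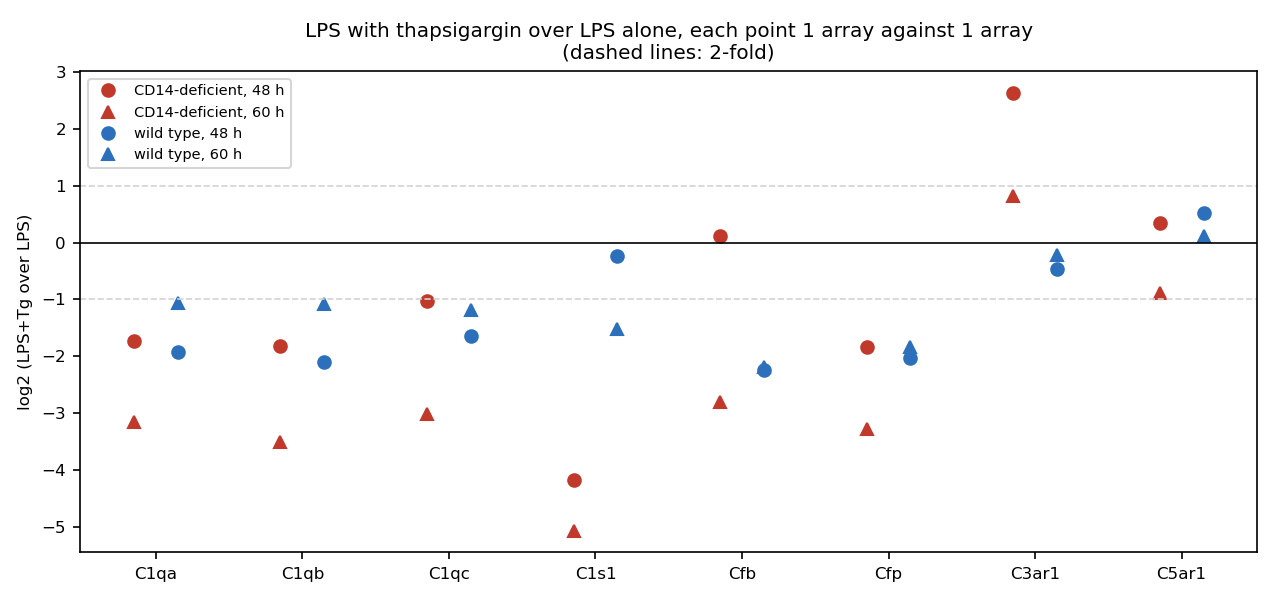
Log2 ratio of the signal with LPS and thapsigargin to that with LPS alone, for each complement gene, genotype and time, each point 1 array over 1 array and dashed lines at 2-fold. The points of C1qa, C1qb, C1qc and Cfp lie below −1 at both times in both genotypes, while C3ar1, on its brighter probe set, is above 0 in CD14-deficient and below 0 in wild-type cells.

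No difference between the genotypes passed for the C1q chains under either treatment. Under LPS, C1qa was 1.85-fold lower at 48 h and 5.13-fold higher at 60 h in CD14-deficient cells, C1qb 2.36-fold lower and 5.79-fold higher, and C1qc 3.03-fold lower and 3.10-fold higher. The signs were opposite at 48 and 60 h, and each time holds 1 array of the low-yield pair. C1qb and C1qc were thus 2-fold apart in opposite directions, 2 of 8 beside 1.45% of all genes. The modelled differences under LPS were 0.73 ± 0.72, 0.65 ± 0.83 and 0.02 ± 0.74 (adjusted p = 0.547, 0.645 and 0.993), and without the low-yield pair 1.01 ± 0.43, 0.98 ± 0.45 and 0.77 ± 0.36 (adjusted p = 0.147, 0.176 and 0.183). In unstimulated cells the CD14-deficient array was higher for C1qa (1.83-fold), C1qc (1.53-fold) and C1qb (1.22-fold), single arrays with no test. No chain was 2-fold apart there, beside 1.32% of all genes that were.

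Cfp encodes properdin, which stabilises the alternative pathway convertase. Its values were 307 and 246 in CD14-deficient cells with LPS and thapsigargin, 1098 and 2375 with LPS alone, and 4825 unstimulated. In wild-type cells they were 413 and 240.1, 1696 and 862, and 4357. As with C1q, the 3 conditions were apart in both genotypes. Cfp fell by 4.13 ± 0.61 under LPS with thapsigargin against unstimulated CD14-deficient cells (17.6-fold lower, adjusted p = 0.00948) and by 3.79 ± 0.61 in wild-type cells (13.8-fold lower, adjusted p = 0.0124). Against LPS alone, the change with thapsigargin was −2.56 ± 0.50 in CD14-deficient cells (5.88-fold lower, adjusted p = 0.0409), a call kept in 4 of 10 fits that left out 1 array. The change was −3.39 ± 0.18 without the low-yield pair. In wild-type cells that change was −1.94 ± 0.50 (adjusted p = 0.311), and the difference between the genotypes was −0.61 ± 0.70 (adjusted p = 0.733). With that pair left out the wild-type change was −2.16 ± 0.18 (adjusted p = 0.00833) and the difference −1.23 ± 0.27 (adjusted p = 0.0491). Under LPS the genotypes differed in Cfp by 0.42 ± 0.50 (adjusted p = 0.618). With the low-yield pair left out the difference was 1.03 ± 0.23, for CD14-deficient cells at 60 h against wild type at 48 h. LPS alone gave −1.58 ± 0.61 (adjusted p = 0.200) in CD14-deficient and −1.85 ± 0.61 (adjusted p = 0.0941) in wild-type cells, and −0.75 ± 0.20 (adjusted p = 0.0505) and −1.64 ± 0.20 (adjusted p = 0.00345) with the low-yield pair left out.

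The summed signal of neutrophil markers was also lowest under LPS with thapsigargin, though 1 marker was higher than in unstimulated cells. Of 11 listed, 9 had a probe set and 6 passed the filter, and Elane and Mpo, which mark granulocyte precursors, stayed at 54.8 or less. The summed signal of the 9 was 5381 and 5091 in CD14-deficient cells with LPS and thapsigargin, 9704 and 18018 with LPS alone, and 17672 unstimulated. In wild-type cells it was 6276 and 8115, 16327 and 20168, and 18298. Against unstimulated cells, LPS with thapsigargin lowered 5 of the 6 in CD14-deficient cells and 3 of 6 in wild type, beside 10.4% and 9.51% of all genes. It raised Lcn2, the gene of the iron-withholding protein lipocalin 2, by 3.09 ± 0.29 in CD14-deficient cells and 3.82 ± 0.29 in wild type (adjusted p = 0.00362 and 0.00269). LPS alone raised Lcn2 as well, and lowered 2 of the 6 markers in CD14-deficient cells and 3 of 6 in wild type. The sums under LPS alone thus hold much Lcn2, at 6533 and 6172 in CD14-deficient cells (373 unstimulated). In wild-type cells Lcn2 read 8424 and 10463 (257 unstimulated). S100a8, an alarmin of neutrophils and monocytes and one of the 9, had the profile closest to Cfp. The part of these markers in the fall of Cfp was not tested.

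Cfb encodes factor B, the protease subunit of the alternative pathway convertase. It rose under LPS in wild-type cells. It read 914 and 452 in CD14-deficient cells with LPS and thapsigargin, 842 and 3157 with LPS alone, and 147 unstimulated. Wild-type cells gave 829 and 353 with LPS and thapsigargin, 3926 and 1617 with LPS alone, and 116 unstimulated. All stimulated arrays were above the unstimulated one of their genotype, by at least 3.04-fold. In wild-type cells the LPS arrays were above those with thapsigargin, while in CD14-deficient cells these conditions overlapped. The LPS change was 3.47 ± 0.97 (11.1-fold higher, adjusted p = 0.111) in CD14-deficient and 4.44 ± 0.97 (21.7-fold higher, adjusted p = 0.0342) in wild-type cells. That call was kept in 3 of 9 fits that left out 1 array. Leaving out the low-yield pair gave 4.98 ± 0.16 (adjusted p = 0.000356) and 4.52 ± 0.16 (adjusted p = 0.000333).

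With thapsigargin present, Cfb was 2.13 ± 0.97 above unstimulated CD14-deficient cells (adjusted p = 0.166) and 2.22 ± 0.97 above unstimulated wild-type cells (adjusted p = 0.159). Against LPS alone, thapsigargin gave −1.34 ± 0.79 (adjusted p = 0.316) in CD14-deficient and −2.22 ± 0.79 (adjusted p = 0.427) in wild-type cells. In wild-type cells the signal with thapsigargin was 4.74-fold and 4.58-fold lower at 48 and 60 h. In CD14-deficient cells it was 1.09-fold higher at 48 h and 6.98-fold lower at 60 h, where the 48 h LPS array is one of the low-yield pair. Leaving out that pair, thapsigargin gave −2.86 ± 0.15 (adjusted p = 0.000974) in CD14-deficient and −2.30 ± 0.15 (adjusted p = 0.00604) in wild-type cells. Between the genotypes under LPS, Cfb differed by −0.63 ± 0.79 (adjusted p = 0.638), 4.66-fold lower at 48 h and 1.95-fold higher at 60 h in CD14-deficient cells. The sign turned when the low-yield pair was left out, to 0.81 ± 0.19. That fit sets CD14-deficient cells at 60 h against wild type at 48 h, where the signals were 3157 and 3926. The positive sign rests on a time shift of −1.12, taken from the arms with thapsigargin alone. Cfb was also lower at 60 than at 48 h with LPS and thapsigargin, 2.02-fold in CD14-deficient and 2.35-fold in wild-type cells, beside 0.375% and 0.468% of all genes lower by 2-fold.

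C1s1 encodes the C1s protease, which C1q-bound C1r activates. It was high under LPS in CD14-deficient cells and at most 40.3 on all other arrays. Its signal was 10.8 and 7.89 in CD14-deficient cells with LPS and thapsigargin, 242 and 448 with LPS alone, and 2.52 unstimulated. Wild-type signals were 6.09 and 14.0, 15.7 and 40.3, and 5.35. Signals under the floor of 13.4 have no order. Against unstimulated CD14-deficient cells C1s1 was at least 24.6-fold higher under LPS (modelled change 4.62 ± 0.56, adjusted p = 0.0191), a call kept in 3 of 9 fits that left out 1 array. With thapsigargin it was at least 24.6-fold lower than with LPS alone (adjusted p = 0.0126), kept in 6 of 10 such fits. Under LPS at 48 h CD14-deficient cells were 15.4-fold higher than wild type, whose signal was barely over the floor. At 60 h they were 11.1-fold higher. The modelled limma change was 3.71 ± 0.46 (adjusted p = 0.0205), beside 3.3% of all genes that were 2-fold higher at both times. As C1s1 was tested only because it was high on these arrays, its adjusted p-values, kept calls and this share are a description and support nothing. The genotype call was kept in 4 of 10 fits that left out 1 array and was lost without a filter on dim genes (adjusted p = 0.0595), and the stricter filter removed C1s1.

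The C1s1 changes were 5.05 ± 0.26 for LPS in CD14-deficient cells, −5.05 ± 0.23 for thapsigargin there and 4.80 ± 0.30 between the genotypes under LPS when the low-yield pair was left out. Both unstimulated signals and both CD14-deficient signals with thapsigargin were set to the floor, so the differences of the LPS and thapsigargin effects between the genotypes measure nothing for C1s1 that the values under LPS do not. The suffix of this probe set (_s_at) marks probes shared by several transcripts, so a related gene such as C1s2 may be read by it too. C1ra, the gene next to it for the partner protease C1r, read 105 and 317 on the CD14-deficient LPS arrays, 38.7 and 65.9 with thapsigargin and 93.7 unstimulated. Its wild-type values were 179 and 143 under LPS, 50.2 and 69.6 with thapsigargin and 83.3 unstimulated. C1ra passed in no comparison.

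Markers of other cell types were high on some of the same arrays. Of 5 B cell markers, 4 had a probe set and 1, Ms4a1, which encodes CD20, passed the filter. Their summed signal was 521 and 236 on the CD14-deficient LPS arrays and between 63.9 and 140.0 on the other 8, and Pax5, which defines the lineage, was at most 15.1 on any array. Of 10 stromal markers, all had a probe set and 3 passed the filter. Their sum was 625 and 756 on the CD14-deficient LPS arrays, 266 and 363 with thapsigargin and 179 unstimulated. In wild-type cells it was 1194 and 2997, 423 and 397, and 107. That sum was higher on wild-type than on CD14-deficient LPS arrays through Dcn, which encodes decorin. Dcn made up most of the sum on the wild-type LPS arrays, at 921 and 2707, and read 131 and 159 with thapsigargin there. On the CD14-deficient LPS arrays Dcn read 89.2 and 416. Lum read 261 and 143 on the CD14-deficient and 132 and 145 on the wild-type LPS arrays. Thy1 read 153 and 53.6, and 56.5 and 59.5, so both were higher in CD14-deficient cells at 48 h alone. The collagen gene Col1a1 was at most 17.9 on any array. Col1a2, another collagen gene, read 35.7 and 58.5 on the CD14-deficient LPS arrays and at most 32.3 elsewhere. Neither passed the filter. Single markers of other lists were high on the CD14-deficient LPS arrays too. Flt3, a dendritic cell marker, read 1149 and 334 there and at most 114 elsewhere. Camp, a neutrophil marker, read 345 and 356 and at most 196 elsewhere. Other members did not follow, such as Itgax at 892 and 6941 (7838 unstimulated). The part of any of these markers in the C1s1 signal was not tested.

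C3ar1 encodes the C3a receptor, and its 2 probe sets differed. On the brighter one it read 3036 and 2550.4 in CD14-deficient cells with LPS and thapsigargin, 491 and 1443 with LPS alone, and 1707 unstimulated. Wild-type cells gave 3681 and 2880.2, 5080.4 and 3341, and 1744. Under LPS the CD14-deficient arrays were thus below both unstimulated arrays and the wild-type arrays above them. CD14-deficient cells were lower than wild type under LPS by 10.3-fold at 48 h and 2.31-fold at 60 h, a change of −2.29 ± 0.52 that did not pass (adjusted p = 0.0628), beside 2.19% of all genes lower by 2-fold at both times. Leaving out the low-yield pair, it was −1.51 ± 0.12 (adjusted p = 0.00849).

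Thapsigargin on top of LPS gave 1.72 ± 0.52 in CD14-deficient cells (3.30-fold higher, adjusted p = 0.0959) and −0.34 ± 0.52 in wild-type cells (adjusted p = 0.851) on this probe set. Per time, the signal with thapsigargin was 6.18-fold and 1.77-fold higher in CD14-deficient cells and 1.38-fold and 1.16-fold lower in wild-type cells. The changes were 0.80 ± 0.09 (adjusted p = 0.00392) in CD14-deficient cells and −0.49 ± 0.09 (adjusted p = 0.0314) in wild type in the fit that leaves out the low-yield pair. The difference between the genotypes was 2.06 ± 0.73 for thapsigargin (adjusted p = 0.323) and −2.26 ± 0.89 for LPS (adjusted p = 0.591), and without the low-yield pair 1.29 ± 0.14 (adjusted p = 0.0226) and −1.48 ± 0.15 (adjusted p = 0.0333). With thapsigargin the genotypes differed by −0.23 ± 0.52 (adjusted p = 1), and by 1.21-fold and 1.13-fold at 48 and 60 h.

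On the dimmer probe set C3ar1 read 614 and 711 in CD14-deficient cells with LPS and thapsigargin, 325 and 1447 with LPS alone, and 2620.45 unstimulated. Wild-type signals were 867 and 748, 1006 and 1135, and 2524. Here every stimulated array was below the unstimulated ones. The wild-type LPS change was 1.24 ± 0.63 on the brighter and −1.24 ± 0.68 on the dimmer probe set, and neither passed. Leaving out the low-yield pair, they were 1.39 ± 0.10 (adjusted p = 0.000979) and −1.33 ± 0.19 (adjusted p = 0.00441), still of opposite sign. Between the genotypes under LPS the dimmer one gave −0.64 ± 0.56 (adjusted p = 0.50), 3.09-fold lower at 48 h and 1.28-fold higher at 60 h. Its thapsigargin effect in CD14-deficient cells was −0.05 ± 0.56. Without the low-yield pair these were 0.53 ± 0.22 (adjusted p = 0.136) and −1.13 ± 0.16 (adjusted p = 0.00648), each of the opposite sign to the brighter probe set. The low value at 48 h in CD14-deficient LPS cells was common to both, and the rest of the C3ar1 pattern rests on 1 probe set.

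**Figure D4:**
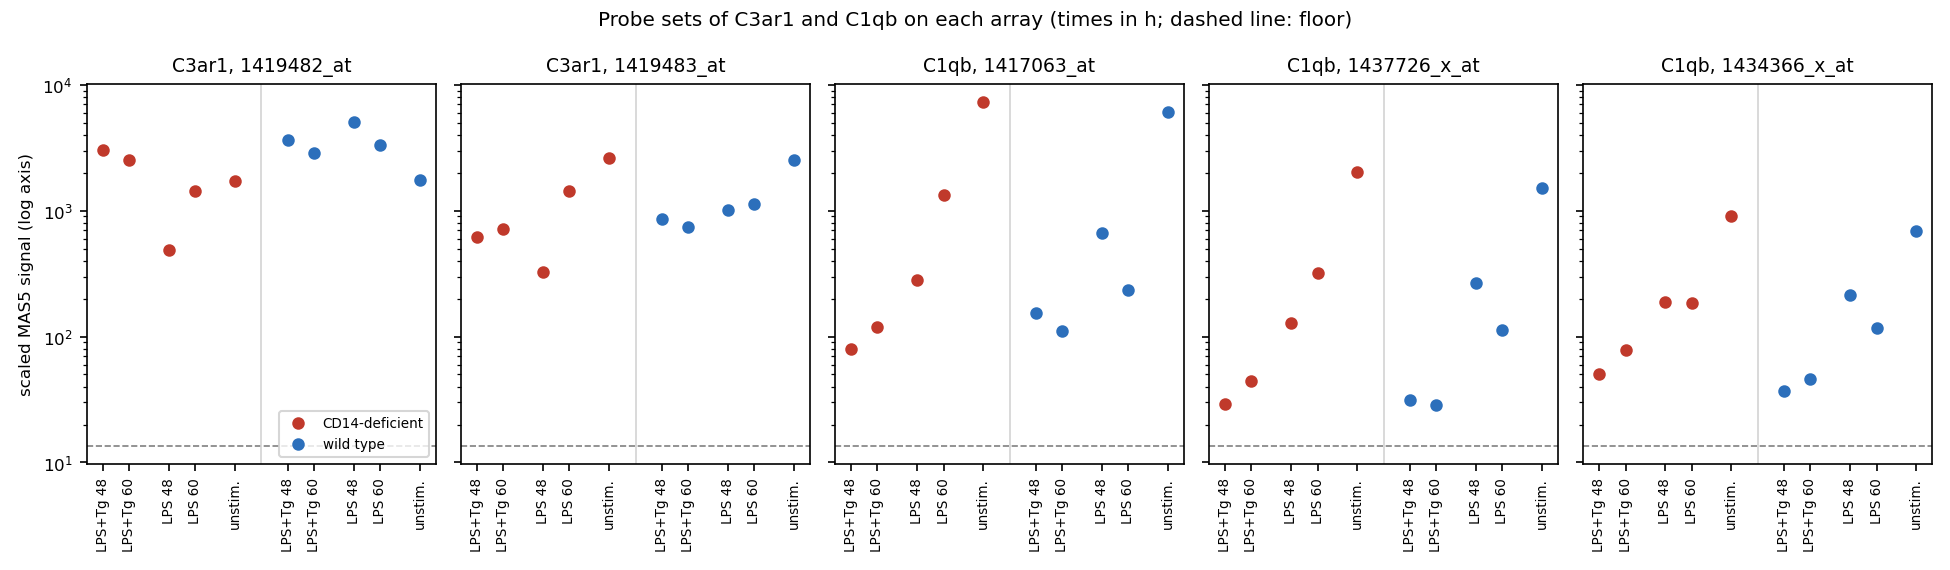
Scaled MAS5 signal (log axis) of the 2 probe sets for C3ar1 and the 3 for C1qb on each of the 10 arrays, CD14-deficient in red left of wild type in blue, with the floor dashed. The C1qb probe sets all fall with stimulation, while the C3ar1 probe sets go opposite ways in stimulated wild-type cells.

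The summed signal of the macrophage markers was lowest on the same CD14-deficient LPS array at 48 h, though Adgre1 read 2731 there (2650 unstimulated). Of 15 listed, 14 had a probe set and 12 passed the filter, and Cd163 was at the floor throughout. Their summed signal was 50701 and 45070 in CD14-deficient cells with LPS and thapsigargin, 31255 and 63732 with LPS alone, and 65435 unstimulated. In wild-type cells it was 54591 and 46198, 65852 and 58121, and 62649. The dendritic cell markers had their highest sum on that array, 84630, against 48295 to 75538 on the other 9, but its members went both ways. Ccr7 read 16168 there (2667 in unstimulated CD14-deficient cells) and Irf8 8369 (894). Itgax read 892 (7838 unstimulated) and Clec10a 93.1 (1086). Against unstimulated cells, LPS with thapsigargin lowered 3 of the 12 macrophage markers in CD14-deficient cells (Mrc1, Marco and Apoe), beside 10.4% of all genes. In wild-type cells it lowered 2 (Mrc1 and Apoe), beside 9.51%. The median of the 12 was −1.31 and −1.17. Adgre1 went the other way with LPS and thapsigargin, at 4152 and 3830 in CD14-deficient cells (2650 unstimulated) and 4214 and 4135 in wild type (2695). Mrc1, the mannose receptor gene, changed by −7.17 ± 0.89 in CD14-deficient cells and −6.84 ± 0.89 in wild type. The part of these markers in the C1q and C3ar1 values was not tested.

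C5ar1 encodes a receptor for C5a, the chemoattractant fragment. It was highest in unstimulated cells, and in CD14-deficient cells it read 70.5 and 64.1 with LPS and thapsigargin, 55.6 and 119 with LPS alone, and 229 unstimulated. Its wild-type signals were 81.0 and 119, 56.3 and 110.3, and 275. The stimulated arrays of both genotypes lay between 55.6 and 119, all below both unstimulated arrays. C5ar1 fell by 1.77 ± 0.44 under LPS with thapsigargin in CD14-deficient cells (3.41-fold lower, adjusted p = 0.0394), a call kept in 3 of 9 fits that left out 1 array, and its wild-type change was −1.48 ± 0.44 (adjusted p = 0.0645). Under LPS alone it changed by −1.49 ± 0.44 in CD14-deficient cells (adjusted p = 0.124) and fell by 1.80 ± 0.44 in wild-type cells (3.49-fold lower, adjusted p = 0.0456), likewise kept in 3 of 9. In the fit that leaves out the low-yield pair the LPS changes were −1.05 ± 0.33 (adjusted p = 0.0728) and −2.18 ± 0.33 (adjusted p = 0.00615). The genotypes differed by 0.04 ± 0.36 under LPS (adjusted p = 0.950) and thapsigargin gave −0.27 ± 0.36 and 0.32 ± 0.36 in CD14-deficient and wild-type cells (adjusted p = 0.654 and 0.800). Without the low-yield pair these were 0.87 ± 0.38 (adjusted p = 0.162), −0.72 ± 0.29 (adjusted p = 0.108) and 0.70 ± 0.29 (adjusted p = 0.159).

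The C1q chains and Cfb changed between 48 and 60 h in opposite senses in the LPS arms of the genotypes. In CD14-deficient cells 7 of the 8 genes were at least 2-fold higher at 60 than at 48 h, from 2.14-fold for C5ar1 to 4.81-fold for C1qb, and C1s1 was 1.86-fold higher, beside 9.86% of all genes. In wild-type cells C1qa, C1qb, C1qc and Cfb were lower at 60 h, by 2.43-fold to 2.88-fold, beside 1.73% of all genes, and C1s1 was 2.56-fold higher, beside 4.84%. With LPS and thapsigargin, 1 of 8, Cfb, was 2-fold apart between the times. Each LPS arm holds 1 array of the low-yield pair, at 48 h for CD14-deficient cells and 60 h for wild type, so time and array quality cannot be told apart. Over all genes, 1297 were 2-fold apart between the times in CD14-deficient LPS cells and 491 in wild-type LPS cells, against 189 and 115 in CD14-deficient and wild-type cells with thapsigargin.

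A wider list of 46 other complement genes covered the lectin and terminal pathways, regulators and further receptors. Of these, 33 had a probe set and 9 passed the filter, while 24 were below it, among them C2, the C5 gene Hc, the regulators Cfi and Serping1 and the macrophage receptor gene Vsig4. Of the 9, Cd93, first described as a C1q receptor and known for the uptake of dying cells, was lower against unstimulated cells in all 4 stimulated arms. It read 419 and 496 in CD14-deficient cells with LPS and thapsigargin, 182 and 527 with LPS alone, and 2125 unstimulated. The wild-type values were 452 and 609, 119.7 and 190.4, and 2832. Cd93 fell by 2.22 ± 0.41 with LPS and thapsigargin and by 2.78 ± 0.41 with LPS alone in CD14-deficient cells (adjusted p = 0.0170 and 0.0276), and by 2.43 ± 0.41 and 4.23 ± 0.41 in wild-type cells (adjusted p = 0.0137 and 0.00438). For LPS alone it was −2.18 ± 0.16 in CD14-deficient cells and −4.40 ± 0.16 in wild type when the low-yield pair was left out.

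C1qbp, a mitochondrial protein that also binds the globular heads of C1q, fell by 0.80 ± 0.15 under LPS in wild-type cells (adjusted p = 0.0242), with −0.79 ± 0.09 when the low-yield pair was left out. Clu, which encodes clusterin, an inhibitor of the terminal complex, rose by 2.40 ± 0.46 under LPS with thapsigargin in wild-type cells (adjusted p = 0.0194). The other 6, C1ra, Cd59a, Cr1l, Itgam, Itgax and Itgb2, passed in no comparison in the fit of all arrays. Without the low-yield pair, thapsigargin against LPS alone gave −3.21 for Itgax, −2.88 for Itgam and −2.34 for C1ra in CD14-deficient cells. Itgb2 gave −1.53, Cd59a −0.93 and Cr1l −0.76 there. In wild-type cells the changes were −1.52, −1.90, −1.91, −1.02, −0.29 and 0.003 in the same order. Each LPS arm is then a single array, so these are effect sizes only. With all arrays in the fit, LPS with thapsigargin gave the 9 a median of −0.94 against unstimulated CD14-deficient cells and −1.16 in wild type. The 8 complement genes above had −2.95 and −2.64. In that fit, thapsigargin against LPS alone gave the 9 a median of −0.64 in CD14-deficient cells and 0.05 in wild type. In both genotypes 0 of 9 were called, beside 1 and 3 of 9 at an unadjusted p under 0.05.

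The genes most like each complement gene were found among the 7474 by the root mean square difference of centred log2 profiles over the 10 arrays, as a description with no test. C1qa was closest to Pros1, which encodes the anticoagulant protein S (0.59), and to the matricellular gene Ccn3 (0.61). C1qb was closest to Ccn3 (0.64) and the C-type lectin gene Clec4a2 (0.67), and C1qc to Evl, an actin regulator (0.61), and Pros1 (0.61). The median gene lay at 1.95 to 2.30 from the C1q chains. In CD14-deficient cells Clec4a2 read 117 and 126 with LPS and thapsigargin, 401 and 2008 with LPS alone, and 4143 unstimulated, the C1q order of conditions. Cfp was closest to S100a8 (0.46) and the histamine-degrading enzyme gene Hnmt (0.50). Cfb was closest to Cp, which encodes ceruloplasmin (0.43), and to the acute phase gene Saa3 (0.66).

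C1s1 was closest to the immunoglobulin genes Igkv9-120 (0.62) and Ighm (0.82), with a median of 1.87 for all genes. Igkv9-120 read 204 and 241 on the CD14-deficient LPS arrays and at most 68.1 on the other 8. On its brighter probe set C3ar1 was closest to the antiviral gene Oas1a (0.25) and to Afp (0.29), and C5ar1 to the DNA repair gene Apex1 (0.24) and the myeloid factor gene Cebpa (0.27). The median gene lay at 0.99 and 0.85 from these receptor genes, whose own profiles vary less.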

How the data were processed

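RNA of 10 dendritic cell cultures was measured on 10 single-colour arrays, and the deposited values are linear MAS5 intensities per probe set, made by the authors per the submitters' processing notes. The MAS5 version and scaling target were not given in the sources used here. Of 22690 probe sets, 20380 carried 1 gene symbol, 691 several and 1619 none, and 64 were controls. Symbols were checked by Entrez ID, with 20351 matched. Each array was scaled to a 2% trimmed mean of 509 (444 to 553 before), raised to a floor of 13.4 (the 25th percentile) and put on the log2 scale. The probe set with the highest mean stood for a gene. Of 12393 genes, 7474 exceeded 99.2 on at least 2 arrays. limma 3.58.1 (R 4.3.3) fitted 6 genotype and treatment levels and time, with 3 residual degrees of freedom, a variance trend and Benjamini-Hochberg adjustment over 7474 genes per comparison, for 11 comparisons. For the LPS response in wild type, the model was run on simulated arrays with known changes and independent noise of equal spread for every gene. These had no time shift and no deviant arrays, so that run cannot speak for the real arrays in those respects. The number of arrays, none with a replicate, and the 2 arrays of low cRNA yield limit the precision. Named were all 9 complement genes, other complement genes that passed in a comparison, the 2 most similar profiles per gene, Cd14, and cell markers chosen for context. The genes and lists were chosen with earlier results of these data known. Alternatives changed the scaling, floor, filter, probe set rule and variance trend, and left out arrays. Every probe set without the low-yield arrays was added after seeing the data.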

Additional observations from a re-analysis of the deposited data

Results flagged for a closer look

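C3ar1 moved in opposite directions in the genotypes, at both times, on its brighter probe set. Thapsigargin added to LPS went with a higher signal in CD14-deficient cells and a lower one in wild-type cells, and the effects differed by 2.06 on the log2 scale (limma adjusted p = 0.323). LPS against unstimulated cells went with a lower signal in CD14-deficient cells and a higher one in wild-type cells, a difference of −2.26 (limma adjusted p = 0.591). Neither difference passed. The LPS change in CD14-deficient cells was −1.02 ± 0.63 (limma adjusted p = 0.388), 3.47-fold lower at 48 h and 1.18-fold at 60 h. Without the low-yield pair it was −0.09 ± 0.10. On the dimmer probe set the differences between the genotypes were 0.35 (limma adjusted p = 0.870) and −0.69 (limma adjusted p = 0.864). There both genotypes changed in the same direction, by −0.05 and −0.41 with thapsigargin and −1.93 and −1.24 with LPS, CD14-deficient cells first.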

How the results depend on the processing

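No paired analysis was possible because the labels number no replicates. Arrays of the same time share the time term of the fit. No call on a single complement gene changed direction under any alternative run, with 222 kept and 82 lost. Without a filter on dim genes, which leaves more genes to adjust over, the number of the 8 genes called was 0 for LPS in wild-type cells, 0 for LPS with thapsigargin against unstimulated cells in each genotype, 0 for the genotypes under LPS and 1 for thapsigargin in CD14-deficient cells. The stricter filter, which drops C1s1, gave 0 for LPS in CD14-deficient cells, 0 for the genotypes under LPS and 1 for thapsigargin in CD14-deficient cells. The values as deposited gave 5 for LPS in wild-type cells and 2 for the genotypes under LPS, and the cause was not tested.

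Without both arrays of lowest cRNA yield the counts were 5 for LPS in CD14-deficient cells and 7 in wild type, 7 for LPS with thapsigargin against unstimulated wild-type cells, 4 for the genotypes under LPS, 7 for thapsigargin in CD14-deficient cells and 6 in wild type, 2 for the difference of the LPS responses and 3 for that of the thapsigargin effects. Leaving out 1 array at a time gave 0 to 8 for LPS in CD14-deficient and 0 to 7 in wild-type cells, 0 to 7 for LPS with thapsigargin against unstimulated cells in each genotype, and 0 to 4 for the genotypes under LPS. It gave 0 to 7 for thapsigargin in CD14-deficient and 0 to 3 in wild-type cells, 0 to 3 for each difference between the genotypes, and 0 to 1 for time. The upper ends came without a CD14-deficient LPS array, and an arm left with 1 array is assumed to vary like the others. Where C1s1 is in these counts, it was tested only because it was high on the CD14-deficient LPS arrays.

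Over all genes, leaving out 1 array gave 22 to 2883 calls for LPS in CD14-deficient cells (312 with all arrays), 170 to 3281 for LPS in wild type (1191), 122 to 3754 and 90 to 3627 for LPS with thapsigargin against unstimulated cells in CD14-deficient cells and wild type (1606 and 1577), and 2 to 3309 for the genotypes under LPS (387). It gave 0 to 2894 and 0 to 594 for thapsigargin in CD14-deficient cells and wild type (495 and 4), 1 to 56 for the genotypes under LPS with thapsigargin (2), 0 to 1367 and 0 to 1899 for the differences of the LPS and thapsigargin effects (0 each) and 0 to 101 for time (0). Without a filter the genotypes under LPS gave 105, thapsigargin in CD14-deficient cells 153 and the difference of the LPS responses 192, and the stricter filter gave 156 for LPS in CD14-deficient cells. Thapsigargin in wild type ranged from 0 (every probe set on its own) to 17 (values as deposited) over the processing alternatives.

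On the dimmer C3ar1 probe set, fits without both arrays of lowest cRNA yield, chosen after seeing the data, turned the sign of the genotype difference under LPS (0.53), of the difference of the LPS responses (0.47) and of that of the thapsigargin effects (−0.81), none past the threshold.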
